A study of Mus musculus with 9 samples.

Results

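The angiopoietin and Tie system of lung endothelium is described here through 5 genes: Tek and Tie1, which encode the receptors, Angpt1 and Angpt2, which encode the ligands, and Ptprb, which encodes a receptor phosphatase. Accessible chromatin had been profiled by ATAC-seq, an assay that uses a transposase to cut and label open DNA, in endothelial cells sorted from mouse lung, with 3 libraries from infant, 3 from young adult and 3 from mature adult mice. Strain, genotype, sex and age in days are not given in the labels used here, and no treatment is named. Each library is represented by a list of peaks, the intervals called open, with no height or read number, so position, number and width are the measurements. A peak was given to the protein-coding gene whose body held its centre, or else to the nearest gene end within 100 kb. By this rule the 5 genes, of 21896 in the table, held between 53 and 75 peaks per library, and 114 of the 126907 regions obtained by merging overlapping peaks of all libraries.

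Tek (also called Tie2) is a receptor tyrosine kinase of endothelial cells, and Tie1 is its relative and co-receptor. Angpt1, made mainly by mural and other mesenchymal cells, activates Tek and steadies vessels, whereas Angpt2, released by endothelial cells, can block or weakly activate Tek depending on context and is raised where vessels are remodelled. Ptprb (VE-PTP) removes phosphate from Tek and protects the VE-cadherin junctions between endothelial cells.

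The lists held between 88856 and 94646 peaks in infant, 67550 and 68366 in young adult and 59793 and 64208 in mature adult libraries, covering 47.3 to 53.4 Mb, 32.9 to 37.0 Mb and 29.6 to 34.0 Mb of the genome. Sequencing depth is unknown, so the lack of a peak does not show closed chromatin, and list length cannot be told apart from depth. Numbers and widths are given as measured and also relative to the library, scaled to its list or centred on its median. That median is of log2 covered bases over the regions with a peak in every library. Among adult libraries, mature adult replicate 1 and young adult replicate 3 stood apart, since 4536 and 4901 of their regions had no peak elsewhere, against 1211 to 2003 in each of the other 4 adult libraries. The infant libraries, with longer lists, had 6512, 3689 and 4773 such regions. Nothing in the labels ties a library to its own animal, and p-values reflect the spread between libraries, which may be technical. In such sorted pools, fewer cells of a kind and less open chromatin per cell cannot be told apart. All 8 endothelial marker genes had peaks in every library (186 to 199 peaks in sum in infant, 157 to 173 in young adult and 146 to 169 in mature adult libraries), whereas Sftpc of the alveolar epithelium, Cd68 and Itgam of leukocytes and Lum of fibroblasts had none in any library. Fibroblast and mural markers were present, and their sum over 12 genes lay at 77 to 85 peaks in infant, 32 to 37 in young adult and 29 to 32 in mature adult libraries. Over 6 epithelial genes the sum lay at 16 to 21, 7 to 13 and 9 to 10 peaks in infant, young adult and mature adult libraries, and over 6 leukocyte genes at 10 to 11, 8 to 13 and 8 to 9.

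The sequences at the starts of both receptor genes are shown because a peak covered each window whole in 9 of 9 libraries. The RefSeq windows (GRCm38.p6, the build of mm10) are defined in their table as 250 bases before to 50 bases after a gene's start, and lie at chr4:94739039-94739338 on the plus strand for Tek and chr4:118489800-118490099 on the minus strand for Tie1. For Tek the start used there lies inside the gene body as the gene table gives it, so that most of the window falls within that body. Capitals mark matches, on either strand, to short motifs of factor families active in endothelium.
Tek: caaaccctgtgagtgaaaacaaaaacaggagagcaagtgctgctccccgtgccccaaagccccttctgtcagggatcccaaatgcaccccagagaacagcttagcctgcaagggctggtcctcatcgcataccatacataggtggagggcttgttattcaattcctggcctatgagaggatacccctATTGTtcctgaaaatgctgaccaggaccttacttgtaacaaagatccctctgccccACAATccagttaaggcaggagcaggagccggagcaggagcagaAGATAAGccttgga
Tie1: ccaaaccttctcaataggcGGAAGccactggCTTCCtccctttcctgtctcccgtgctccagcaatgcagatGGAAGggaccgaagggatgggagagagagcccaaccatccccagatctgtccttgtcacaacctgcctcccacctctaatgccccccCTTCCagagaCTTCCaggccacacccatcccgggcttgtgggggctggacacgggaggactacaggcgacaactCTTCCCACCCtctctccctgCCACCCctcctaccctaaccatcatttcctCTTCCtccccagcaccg
The letters searched for the ETS family were GGAAG. For forkhead factors they were TGTTTAC and for GATA factors AGATAAG. For AP-1 they were TGANTCA, for KLF factors CCACCC and for SOX factors ACAAT. The Tek window held 1 GATA match at bases 287 to 293 and 2 SOX matches, and none of the other motifs. The Tie1 window held 7 ETS matches and 2 KLF matches, of which 1 overlapped an ETS match by 1 base, and none of the other motifs. Of all 32851 RefSeq windows of this length, 71.4% held the ETS letters, 31.5% KLF, 31.0% SOX, 7.81% AP-1, 3.65% forkhead and 3.04% GATA. Of the matched letters those of GATA, in Tek, were the least common, but they also formed the longest matched string. The shares were not adjusted for string length. A match is a string of letters and not evidence of binding.

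Among the receptors, Tek carried many regions that were open at every age. The gene (NCBI gene 21687) spans chr4:94739086-94874976, and 34 regions were assigned to it, 29 of them inside the gene body. Of the 34, 16 (47.1%) were open in all 9 libraries, against 32.4% of all merged regions, and none was open in all libraries of infants or of adults alone. In number, Tek had 24, 27 and 23 peaks in infant, 21, 25 and 21 in young adult and 19, 23 and 24 in mature adult libraries. The ages overlapped, and the unscaled difference between mature adult and infant libraries was -0.17 on the log2(number + 0.5) scale (SE 0.12, limma adjusted p = 0.354).

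**Figure D1:**
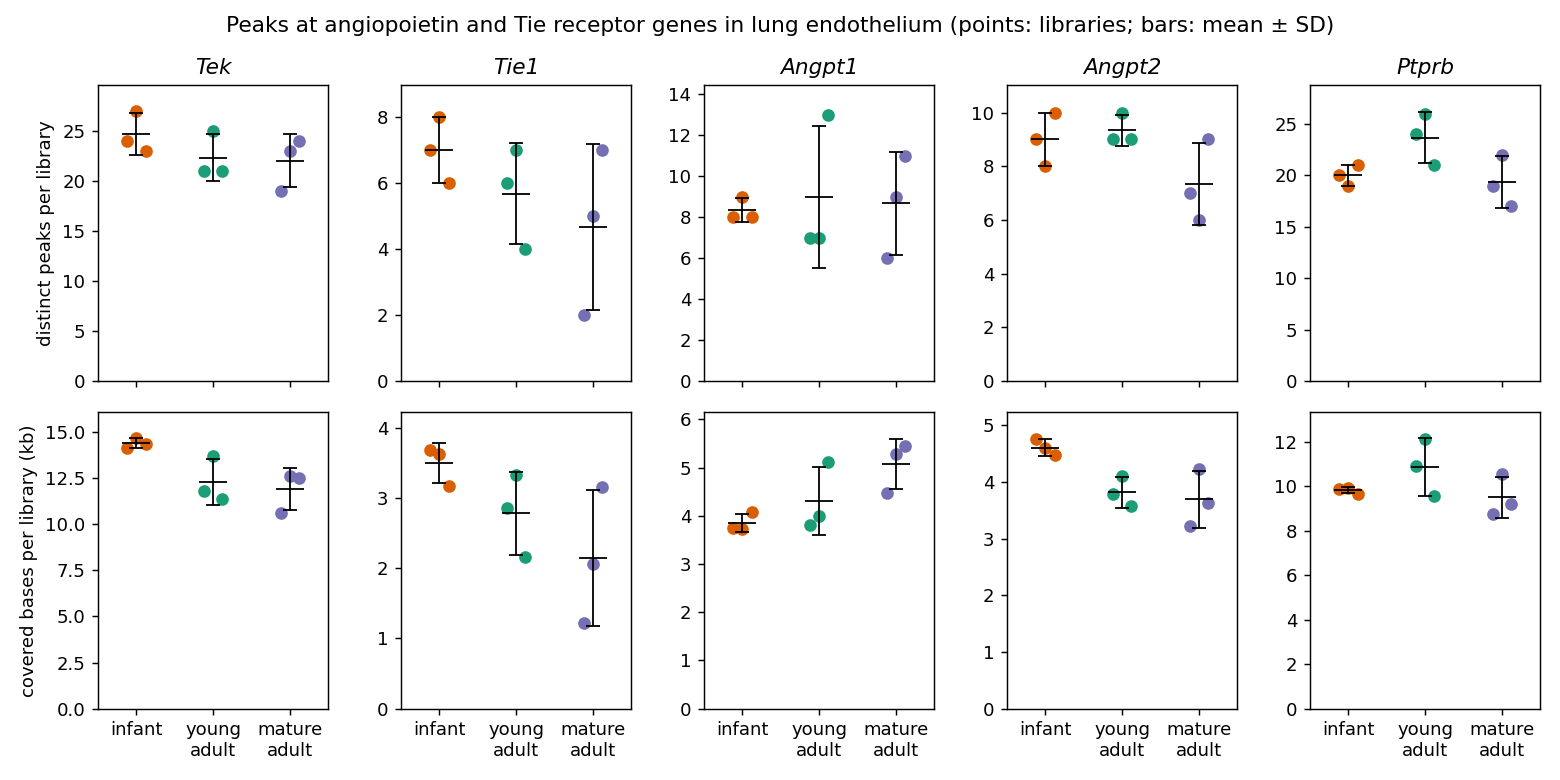
Distinct peaks (upper row) and bases covered by peaks in kb (lower row) at each gene, by age. Points are libraries, and bars give the mean ± SD of 3; covered bases at Tek, Tie1 and Angpt2 lie highest in infant and at Angpt1 highest in mature adult libraries on average, with no scaling to the list.

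The region over the Tek start (chr4:94738831-94739982) was nearly constant, with 1136, 1119 and 1131 covered bases in infant, 1102, 1105 and 1127 in young adult and 1017, 1084 and 1107 in mature adult libraries. A smaller region inside the gene, 2946.5 bp from that end (chr4:94741796-94742269), was narrower in adults. It measured 417, 387 and 448 bp in infant, 210, 204 and 280 bp in young adult and 219, 184 and 150 bp in mature adult libraries, so every adult library lay below every infant library. In the test of widths over all 41144 regions open in every library, the mature adult minus infant difference was -1.19 log2 as measured (SE 0.18, limma adjusted p = 0.00578). It was -0.92 after each library was centred on its median over those shared regions (SE 0.22, limma adjusted p = 0.0270). The centred call was lost without any 1 infant library, or without mature adult replicate 2 or 3, at adjusted p of 0.0565 to 0.0759. For young adult against infant the call was made only as measured, at -0.86 (SE 0.18, limma adjusted p = 0.0298), and centred it was -0.66 (adjusted p = 0.114).

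Covered bases at Tek summed to 14.4 ± 0.258 kb in infant, 12.3 ± 1.25 kb in young adult and 11.9 ± 1.14 kb in mature adult libraries (mean ± SD, n = 3 each). The direction depended on the scale: mature adult libraries were lower than infant ones as measured, with a difference of -0.27 on the log2(kb + 0.1) scale (SE 0.09, limma adjusted p = 0.0357), and higher as a share of all covered bases, at 0.35 (SE 0.07, adjusted p = 0.00278). Over all genes tested the median differences were -0.45 and 0.14 on these scales, so Tek stood above the median on both. The call as measured was lost without any 1 infant library, young adult replicate 1 or mature adult replicate 1 (limma adjusted p from 0.0514 to 0.0957), and without both libraries that stood apart it was -0.19 (adjusted p = 0.0531). The same turn was seen in peak number, where scaling to the list gave 0.37 (SE 0.10, limma adjusted p = 0.0208), a call lost without infant replicate 1 or 3 or mature adult replicate 2 or 3 (adjusted p from 0.0583 to 0.0719).

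Tie1 was the gene with the fewest regions, and its differences had the largest standard errors of the 5 genes on the log2 scales of peak number and covered bases. The gene (NCBI gene 21846) spans chr4:118471191-118489849, with 7 regions, of which 1 lay inside the gene and 2 were open in all 9 libraries. Peaks numbered 7, 8 and 6 in infant, 6, 7 and 4 in young adult and 2, 5 and 7 in mature adult libraries. Both low values came from the libraries that stood apart. The region over the Tie1 start (chr4:118489335-118490578) was present throughout, with 1193, 1151 and 1233 bp in infant, 1192, 1183 and 1071 bp in young adult and 762, 1063 and 1193 bp in mature adult libraries.

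All 4 regions around the other end of Tie1, from chr4:118465623-118466172 to chr4:118471610-118472038, had no peak in young adult replicate 3 or mature adult replicate 1. In the other 4 adult libraries they measured between 0 and 568 bp, and in infant libraries between 0 and 583 bp. A region 10698 bp beyond the start (chr4:118500153-118500941) had 557, 475 and 354 bp in infant and 357, 454 and 725 bp in young adult libraries, but a peak in only 1 mature adult library (235 bp). Covered bases summed to 3.49 ± 0.283 kb in infant, 2.78 ± 0.585 kb in young adult and 2.15 ± 0.971 kb in mature adult libraries. The mature adult minus infant difference was -0.77 log2 as measured (SE 0.30, limma adjusted p = 0.0567) and -0.16 scaled (SE 0.25, adjusted p = 0.596), so no change at Tie1 passed the test. Without mature adult replicate 3 alone the value as measured was -1.08 (limma adjusted p = 0.0106), and without both libraries that stood apart it was -0.43 (adjusted p = 0.0904).

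**Figure D2:**
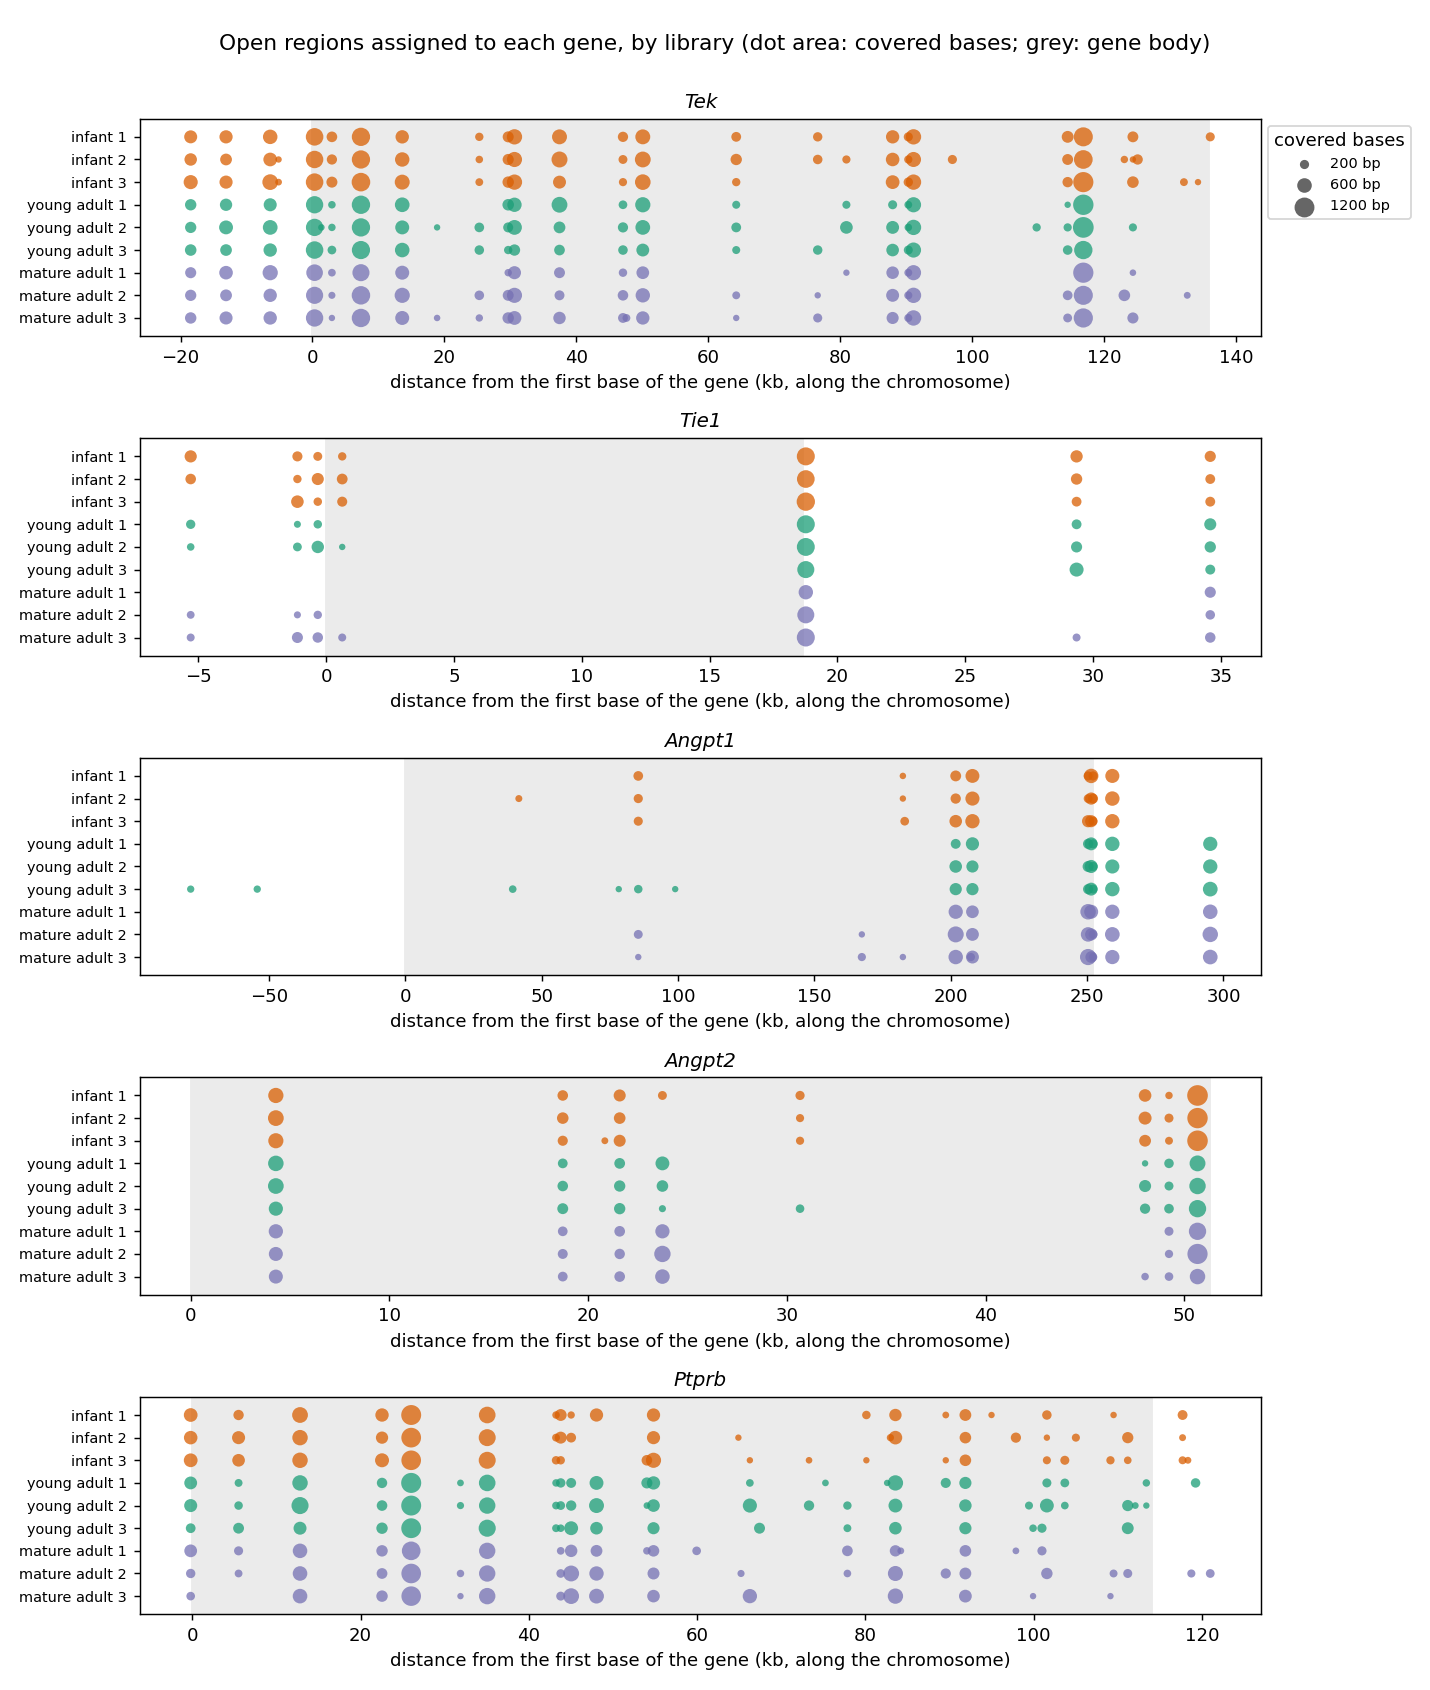
Regions assigned to each gene, by distance in kb from the first base of the gene along the chromosome, with 1 row per library. Dot area gives covered bases and grey marks the gene body; at Angpt1 a column of dots 42847 bp beyond the gene is present in all 6 adult and no infant library.

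Of the ligand genes, Angpt1 had more covered bases in mature adult than in infant libraries on both scales. The gene (NCBI gene 11600) spans 252.311 kb (chr15:42424667-42676977), the longest of the 5 genes, and 18 regions were assigned to it, 14 of them inside. Divided by gene length, all assigned regions, also those outside the gene, came to 0.713 per 10 kb. The same measure was 4.03 at Ptprb, 3.75 at Tie1, 2.50 at Tek and 1.75 at Angpt2. Covered bases were 3.756, 3.731 and 4.069 kb in infant, 3.810, 4.000 and 5.121 kb in young adult and 4.479, 5.280 and 5.451 kb in mature adult libraries. All mature adult libraries lay above all infant libraries. These sums include a region 42847 bp outside the gene, with 780, 877 and 792 bp in mature adult libraries and no peak in infant libraries. Less that region, mature adult replicate 1 lay below every infant library, so the separation rested on it. The tests that follow include the region and were not repeated without it. The mature adult minus infant difference was 0.38 as measured (SE 0.12, limma adjusted p = 0.0290) and 1.00 scaled (SE 0.14, adjusted p = 0.00103). Of all genes, 1.19% were called higher and 56.0% lower as measured, and 34.6% were called higher scaled. The call as measured was lost without infant replicate 1 or 2 or mature adult replicate 2 or 3 (limma adjusted p from 0.0782 to 0.0873), and without both libraries that stood apart it was 0.47 (adjusted p = 0.00186). Young adult libraries differed from infant ones by 0.15 as measured (SE 0.12, limma adjusted p = 0.352) and by 0.63 scaled (SE 0.14, adjusted p = 0.0109).

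At 3 regions of Angpt1 every mature adult library lay above every infant library. The first, 42847 bp outside the gene (chr15:42719360-42720288), was open in every adult library and no infant library, at 747, 757 and 799 bp in young adult and 780, 877 and 792 bp in mature adult libraries. Its width ranked between the 72.0 and 81.3 percentiles of peak widths within those adult libraries. It was the only such region at the 5 genes, and 0.686% of all merged regions were of this kind; with young adult libraries left aside it was again the only one, against 1.26% of all regions. It kept this pattern when an equal number of widest peaks was taken from each library. Leaving out any 1 library could not change the pattern, because the region had a peak in every adult and no infant library. The number of such regions depended on the setting: without infant replicate 1 there were 3, with 1 each at Angpt1, Angpt2 and Ptprb, and with widest peaks there were 3, of which 2 were at Angpt2.

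The second, 1962.5 bp inside the gene's upper end (chr15:42674532-42675497), had 302, 283 and 546 bp in infant, 380, 442 and 376 bp in young adult and 883, 775 and 965 bp in mature adult libraries. Mature adult libraries exceeded all others without overlap, and against infant libraries they were wider by 1.27 log2 as measured (SE 0.24, limma adjusted p = 0.0126) and by 1.55 centred (SE 0.25, adjusted p = 0.00704). This call held in all 13 alternatives run, at adjusted p from 0.00234 to 0.0294. Against young adult libraries the difference was 1.20 centred (SE 0.25, limma adjusted p = 0.144). The deposited lists repeat some intervals, and the rows behind this region numbered 1, 1 and 1 in infant, 1, 2 and 1 in young adult and 4, 3 and 3 in mature adult libraries.

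The third lay deeper in the gene, 50510 bp from an end (chr15:42625854-42627080), with 435, 390 and 581 bp in infant, 360, 581 and 549 bp in young adult and 747, 942 and 769 bp in mature adult libraries. Mature adult libraries again stood above all others. Against infant libraries they were wider by 0.82 as measured (SE 0.22, limma adjusted p = 0.0393) and by 1.09 centred (SE 0.23, adjusted p = 0.0167), and the centred call was lost without infant replicate 1 (adjusted p = 0.0599) or 2 (adjusted p = 0.0579). A region 6933.5 bp outside the gene (chr15:42683510-42684311) was also called wider after centring, at 0.30 (limma adjusted p = 0.0470), but measured 729, 769 and 760 bp in infant, 762, 733 and 765 bp in young adult and 756, 794 and 746 bp in mature adult libraries, which overlapped, and it differed by 0.02 as measured (adjusted p = 0.760). A region inside the gene (chr15:42632224-42632984) had 713, 733 and 753 bp in infant, 642, 545 and 551 bp in young adult and 594, 608 and 616 bp in mature adult libraries, and the region at the gene end (chr15:42676661-42677027) had between 265 and 366 bp in 8 libraries and no peak in mature adult replicate 1.

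Peak number at Angpt1 did not pass the test. There were 8, 9 and 8 peaks in infant, 7, 7 and 13 in young adult and 6, 9 and 11 in mature adult libraries, a mature adult minus infant difference of 0.02 unscaled and 0.53 scaled (SE 0.28, limma adjusted p = 0.160). Of the 13 in young adult replicate 3, 5 were in no other library and together covered 0.908 kb. Without that library and mature adult replicate 1 the scaled difference was 0.73 (limma adjusted p = 0.00444). Of the mural and fibroblast markers, 5 of the 10 tested had fewer scaled peaks in mature adult than in infant libraries and none had more, against 13.9% lower of all genes. Pdgfrb, a pericyte receptor, had 1, 1 and 0 peaks in mature adult and 5, 4 and 5 in infant libraries (limma adjusted p = 0.0365). The part of such cells in the Angpt1 result was not tested.

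**Figure D3:**
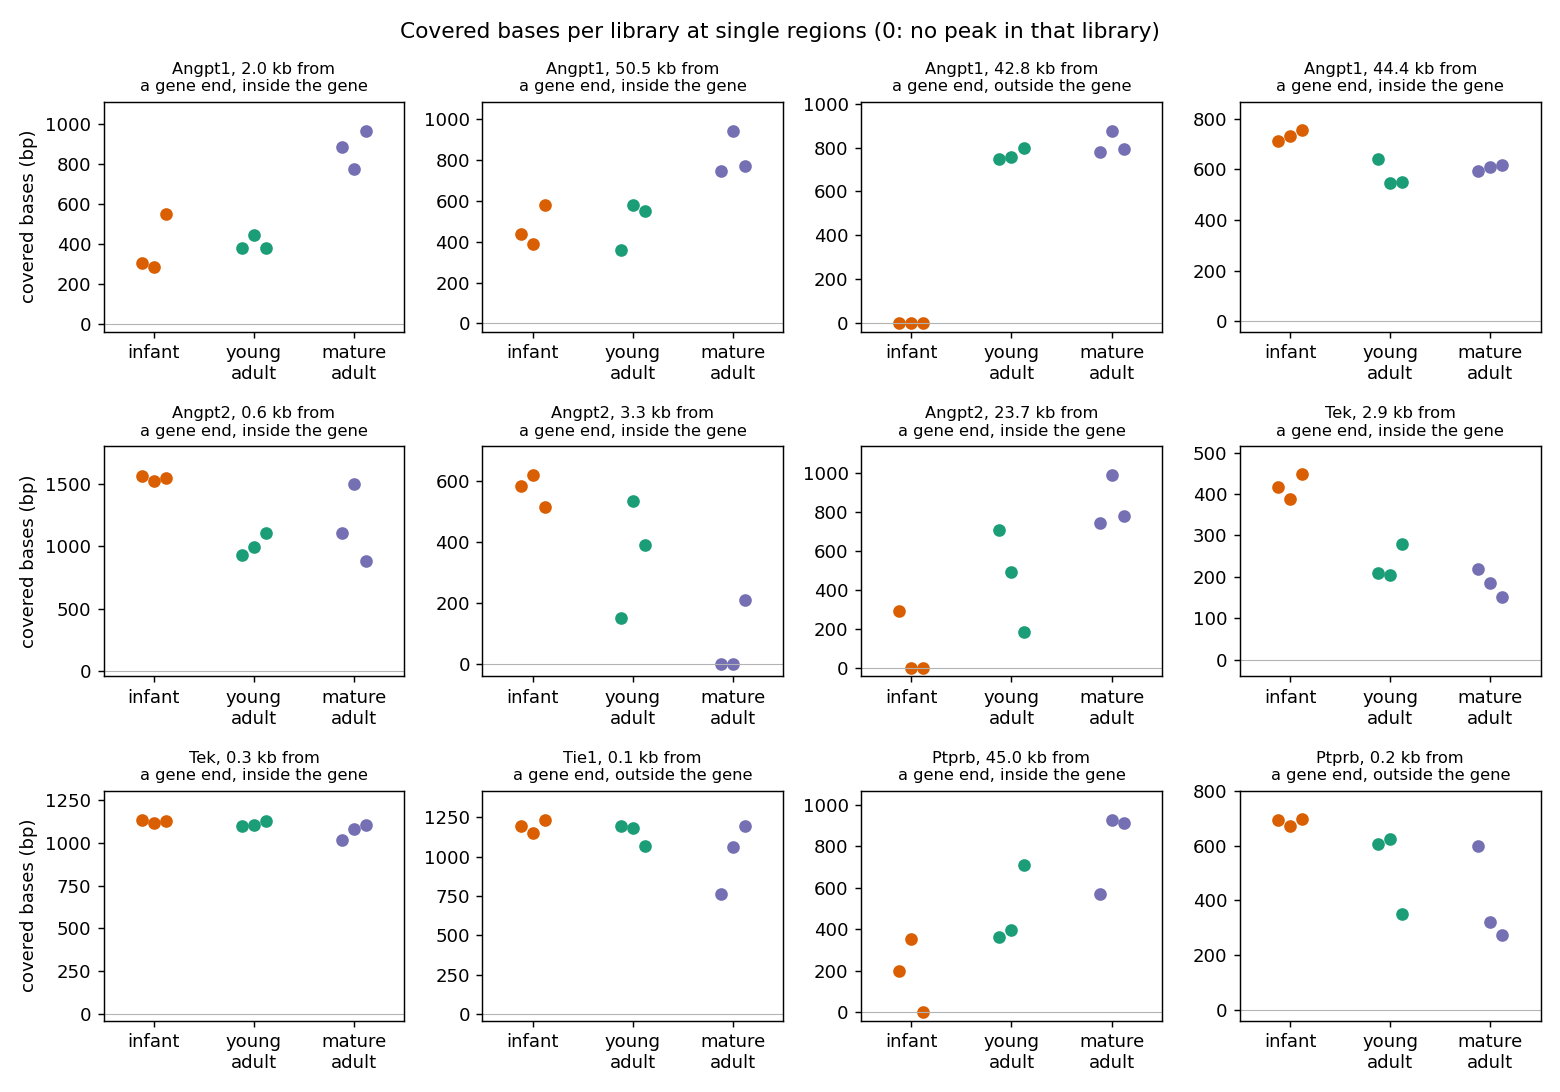
Covered bases in bp at 12 regions, chosen after their values were seen, by age; each point is a library and 0 marks a library without a peak. The first 3 Angpt1 panels are higher in mature adult than in infant libraries without overlap, and the Tek region 2.9 kb from a gene end is lower.

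Angpt2 (NCBI gene 11601) spans chr8:18690263-18741562 and lies wholly within the longer gene Mcph1 (chr8:18595116-18808089), and a centre inside both was given to the shorter gene. All 9 regions were thus inside Angpt2, and 5 were open in every library. Peaks numbered 9, 8 and 10 in infant, 9, 10 and 9 in young adult and 7, 6 and 9 in mature adult libraries. Covered bases were 4.762, 4.592 and 4.470 kb in infant, 3.781, 4.110 and 3.570 kb in young adult and 3.228, 4.225 and 3.635 kb in mature adult libraries, so that every adult library lay below every infant library. Here too the direction turned with the scale: the mature adult minus infant difference was -0.32 as measured (SE 0.10, limma adjusted p = 0.0292) and 0.30 scaled to all covered bases (SE 0.07, adjusted p = 0.00690). Over all genes tested the median differences were -0.45 and 0.14 on these scales, so Angpt2 stood above the median on both. Of all genes, 56.0% were called lower as measured and 34.6% higher scaled. The call as measured was lost without any 1 infant library or without mature adult replicate 1 or 3 (limma adjusted p from 0.0503 to 0.0866).

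Within Angpt2, measured widths differed by age in opposite directions. The widest, 641 bp from an end (chr8:18740042-18741800), measured 1567, 1527 and 1552 bp in infant, 927, 991 and 1106 bp in young adult and 1104, 1497 and 880 bp in mature adult libraries. Every adult library lay below every infant library, yet the difference did not pass the test (mature adult minus infant -0.45 as measured, SE 0.17, limma adjusted p = 0.0964). A region 3279.5 bp from that end (chr8:18737940-18738625) had 585, 622 and 515 bp in infant, 150, 536 and 391 bp in young adult and 0, 0 and 210 bp in mature adult libraries. Another (chr8:18720734-18721111) had 311, 244 and 246 bp in infant libraries and a peak in only 1 adult library, young adult replicate 3 (271 bp). A region 23735 bp from an end (chr8:18713504-18714492) went the other way, with 293, 0 and 0 bp in infant, 709, 495 and 186 bp in young adult and 746, 988 and 781 bp in mature adult libraries. These 3 regions lacked a peak in some libraries, so their widths were not tested. Of all merged regions, 14.4% were open in every infant and no mature adult library, as were 3 of the 114 regions of the 5 genes, chr8:18720734-18721111 and 2 at Ptprb. Without mature adult replicate 3 there were 6, with 2 each at Tie1, Angpt2 and Ptprb, when peaks had to cover 50% of the region there were 7, and with equal numbers of widest peaks there were 0.

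Ptprb (NCBI gene 19263), the phosphatase gene, had the most regions, 46 on and around chr10:116275502-116389538, with 40 inside the gene. Many were not shared between libraries: 8 (17.4%) were open in all libraries and 16 (34.8%) in a single one, against 32.4% and 24.4% of all merged regions. Peaks numbered 20, 19 and 21 in infant, 24, 26 and 21 in young adult and 19, 22 and 17 in mature adult libraries. Scaled to the list, young adult exceeded infant libraries by 0.65 (SE 0.11, limma adjusted p = 0.00230) and mature adult exceeded infant libraries by 0.48 (SE 0.11, adjusted p = 0.00921). Unscaled, these differences were 0.23 (SE 0.11, limma adjusted p = 0.213) and -0.05 (SE 0.11, adjusted p = 0.851). Peak numbers at Ptprb thus overlapped between mature adult and infant libraries, while the adult lists were shorter. Covered bases, at 9.82 ± 0.133 kb in infant, 10.9 ± 1.29 kb in young adult and 9.50 ± 0.924 kb in mature adult libraries, gave mature adult minus infant differences of -0.05 as measured (limma adjusted p = 0.672) and 0.57 scaled (SE 0.07, adjusted p = 0.000433).

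Inside Ptprb, regions close to each other differed in which libraries had a peak. The region 45036 bp from an end (chr10:116319943-116321133) had 198, 353 and 0 bp in infant, 364, 396 and 708 bp in young adult and 571, 927 and 912 bp in mature adult libraries. At chr10:116323118-116323984 the values were 646, 0 and 0 bp in infant, 710, 820 and 588 bp in young adult and 513, 759 and 810 bp in mature adult libraries. Close by, chr10:116318595-116318884 had 207, 228 and 261 bp in infant and 207, 222 and 226 bp in young adult libraries but no peak in any mature adult library. The only region at the 5 genes open in every infant and no adult library, a class with 9.7% of all merged regions, lay 3680 bp beyond the Ptprb end (chr10:116392979-116393457), at 360, 177 and 234 bp. The class held 2 regions of the 5 genes without infant replicate 1, infant replicate 2 or young adult replicate 3, with the second at Tek, Ptprb and Angpt2 in that order, and 0 with equal numbers of widest peaks or when peaks had to cover 50% of the region. At the other end, chr10:116274943-116275679 had 693, 673 and 697 bp in infant, 606, 626 and 349 bp in young adult and 599, 322 and 274 bp in mature adult libraries. Its mature adult minus infant difference of -0.60 centred missed the test (limma adjusted p = 0.195), and without the libraries that stood apart it was -0.99 (adjusted p = 0.00708).

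Over the 5 genes together, scaled peak numbers of 1 gene, Ptprb, were higher in young adult than in infant libraries, where 35.4% of the 14504 genes tested were called and 26.1% were called higher. In mature adult against infant libraries, 2 genes, Tek and Ptprb, were higher, where 44.3% of genes were called and 30.4% were called higher. Unscaled, 0 of 5 were called in either comparison (limma, and 0 of 5 also at an unadjusted p under 0.05), where 18.5% and 30.7% of genes were called and 17.4% and 29.3% were called lower. In scaled covered bases, 4 of 5 genes, all but Tie1, were higher in both comparisons, where 38.7% and 53.5% of genes were called and 26.6% and 34.6% were called higher. As measured, 0 of 5 were called in covered bases of young adult against infant libraries by limma (2 of 5 at an unadjusted p under 0.05), where 39.5% of genes were called. In mature adult against infant libraries 1 was higher and 2 were lower, where 57.1% were called (1.19% higher and 56.0% lower). Both comparisons share the infant libraries. Of the 8 endothelial marker genes, 5 were likewise higher in scaled number in mature adult than in infant libraries and 3 in young adult than in infant libraries, and unscaled 4 and 3 were lower. Between mature and young adult libraries 0 of 5 were called by limma in scaled number (0 at an unadjusted p under 0.05), unscaled number (1), scaled covered bases (1) or covered bases as measured (0), where 0.931%, 0.917%, 0.938% and 0.703% of genes were called.

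Of the 41144 regions with a peak in every library, 36 belonged to the 5 genes, 16 at Tek, 8 at Ptprb, 5 at Angpt1, 5 at Angpt2 and 2 at Tie1. In mature adult against infant libraries, 7 were wider and 1 narrower after centring, where 20.8% of all shared regions were called (14.0% wider and 6.83% narrower). As measured, 2 were wider and 4 narrower, where 18.3% were called (1.92% wider and 16.4% narrower). Centring moved the median of all shared regions to 0.09, against -0.19 as measured, and 3 member regions kept a call on both scales, namely the Angpt1 regions at chr15:42674532-42675497 and chr15:42625854-42627080 and the Tek region at chr4:94741796-94742269. The median over the 36 regions was 0.07 centred and -0.21 as measured. The other calls were made on 1 scale, and 2 of them, starting at chr4:94745782 in Tek and chr10:116300761 in Ptprb, turned sign with the scale, at 0.21 centred and -0.07 as measured for each. The 5 regions wider after centring alone lost that call in 8 to 13 of 14 alternatives, counting those in which the sign turned, with the most losses at the Angpt1 region starting at 42683510. In young adult against infant libraries, 1 region, at Ptprb, was wider after centring, where 5.19% were called and 3.1% were wider, a call lost in 12 of 14 alternatives. In the same comparison 3 were narrower as measured, where 6.92% were called and 5.8% were narrower. Among the 3 was chr10:116297696 of Ptprb, narrower as measured at both adult ages, with 659, 554 and 719 bp in infant, 397, 414 and 479 bp in young adult and 483, 426 and 482 bp in mature adult libraries (mature adult minus infant -0.47, limma adjusted p = 0.0422). Narrower as measured in mature adults were also chr4:94720255 of Tek, at -0.45 (limma adjusted p = 0.0239), and chr8:18711576 of Angpt2, at -0.34 (adjusted p = 0.0361). Between mature and young adult libraries 0 of 36 were called by limma on either scale (2 centred and 3 as measured at an unadjusted p under 0.05), where 0.126% and 0.0972% of regions were called.

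**Figure D4:**
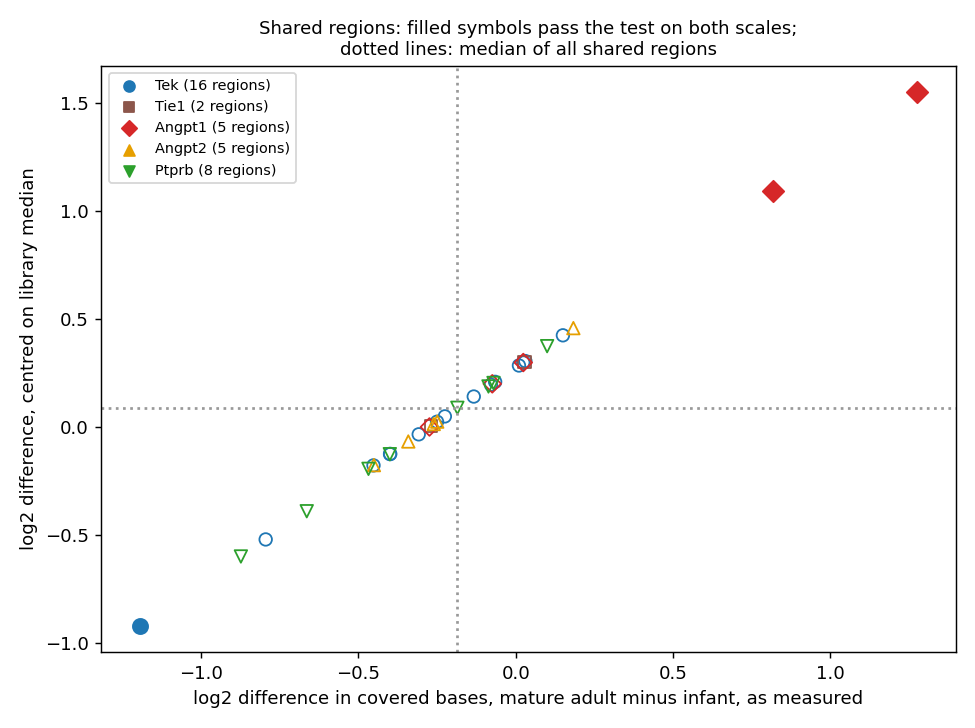
Mature adult minus infant difference in covered bases (log2) at the 36 shared regions, as measured (horizontal axis) and centred on each library's median (vertical axis). Filled symbols passed the test on both scales; 2 Angpt1 regions lie far up and right and 1 Tek region far down and left of the dotted lines, the medians of all 41144 shared regions.

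The covered bases that libraries shared were set beside each other within and between ages. The Jaccard index, shared over joint length, averaged 0.547 between mature adult and infant libraries at Angpt2, against 0.737 among mature adult and 0.829 among infant libraries. At Angpt1 these averages were 0.523 between the ages, 0.696 among mature adult and 0.737 among infant libraries. At Ptprb they were 0.475 between the ages, 0.570 among mature adult and 0.595 among infant libraries. At Tek the average between the ages, 0.711, was close to that among mature adult libraries, 0.729, and infant libraries reached 0.774. At Tie1 mature adult libraries shared less with each other, 0.488, than with infant libraries, 0.527, and infant libraries averaged 0.717. These are descriptions of 9 pairs between and 3 pairs within ages that share libraries, and the difference between genes was not tested.

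Other genes of the pathway were taken as a list of 20, with 19 tested and Grb7 at 2 peaks in all left out for low numbers. In scaled number, 4 were higher and 2 lower in mature adult than in infant libraries, and 2 higher and 0 lower in young adult than in infant libraries. With 30.4% of all genes called higher and 13.9% lower in mature adults, and 26.1% higher in young adults, the list did not exceed the share of all genes called higher in either comparison. Their median difference in mature adult against infant libraries was 0.13, near the 0.14 of all genes. The higher genes were Jup (plakoglobin of junctions), Fgd5 (an exchange factor for Cdc42 in endothelium), Cdh5 (VE-cadherin, a target of Ptprb) and Grb14 (an adaptor that binds Tek), and of these Jup and Fgd5 were also higher in young adults. Jup had 11, 12 and 12 peaks in mature adult and 10, 10 and 11 in infant libraries (limma adjusted p = 0.000128 scaled and 0.0711 unscaled). Fgd5 had 20, 24 and 25 peaks in mature adult and 23, 22 and 26 in infant libraries (adjusted p from limma 0.00362 scaled and 0.885 unscaled). Cdh5 had 22, 24 and 26 peaks in mature adult and 27, 31 and 27 in infant libraries (limma adjusted p = 0.0288 scaled), and Grb14 had 10, 11 and 13 in mature adult and 12, 11 and 12 in infant libraries (limma adjusted p = 0.0393 scaled). None of the 4 was called higher unscaled, and their peak numbers overlapped between the ages except at Cdh5, where mature adult libraries were lower, and Jup, where the ages met at 11.

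The lower genes were Svep1 and Pak1. Svep1, which encodes a matrix protein that binds Tie1, had 10, 10 and 10 peaks in infant, 6, 7 and 8 in young adult and 5, 5 and 6 in mature adult libraries (mature adult against infant, limma adjusted p = 0.0453 scaled and 0.00220 unscaled). Pak1, a kinase reached through the adaptor Nck1, had 3, 3 and 3 peaks in infant, 1, 2 and 2 in young adult and 1, 1 and 1 in mature adult libraries (limma adjusted p = 0.0124 scaled and 0.00481 unscaled). Foxo1, the transcription factor that Akt holds inactive and that drives Angpt2, had 40, 40 and 43 peaks in infant, 29, 31 and 26 in young adult and 24, 26 and 25 in mature adult libraries. Every adult library lay below every infant library, and mature adult against infant was called unscaled (limma adjusted p = 0.000661) but not scaled (adjusted p = 0.0983). Unscaled, 7 of 19 were lower in young adult and 6 of 19 in mature adult than in infant libraries, and 0 were higher, where 17.4% and 29.3% of all genes were called lower, so that the share in mature adults was near that of all genes. The others among these were Pik3ca, a catalytic subunit of phosphoinositide 3-kinase, at both adult ages (10, 10 and 10 peaks in infant, 6, 8 and 7 in young adult and 5, 7 and 6 in mature adult libraries), Angpt4, Shc1 and Mmp14 for young adult and Dok2 and Pik3r1 for mature adult libraries. Their limma adjusted p values in these comparisons lay between 0.00995 and 0.0497, and Pik3r1 had the most peaks among them, with 27, 26 and 31 in infant, 22, 27 and 20 in young adult and 18, 21 and 20 in mature adult libraries. Between mature and young adult libraries 0 of 19 were called by limma scaled (1 at an unadjusted p under 0.05) or unscaled (4).

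Likeness to each member was measured over 9 libraries as the root mean square difference of log2 scaled peak number, each gene less its own mean, among 3797 genes with a mean of at least 5 peaks. The nearest profiles to Tek were those of Tpra1 (0.0493), Gcnt2 (0.0593) and Zdhhc14 (0.0644), and to Ptprb those of Tbx2 (0.0676), Ranbp10 (0.0817) and Ski (0.0834). Nearest to Angpt2 were Tbc1d2b (0.0900), Atp1b3 (0.0976) and Cdc37 (0.0989). The profiles of Angpt1 and Tie1 had no neighbour as close. Nearest to Angpt1 were Dach1 (0.175), Samd9l (0.176) and Atp2a3 (0.176), and to Tie1 Sae1 (0.192) and Slc41a3 (0.203).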

How the data were processed

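Peak lists of 9 ATAC-seq libraries of sorted mouse lung endothelial cells were analysed, 3 for each age. Per the file headers, the deposited lists give the chromosome, start and end of each peak and no other value. Per the submitters' processing notes, cutadapt, Bowtie2 and Picard were used with the build mm10. The tools' versions, how peaks were called and any shift of reads for the enzyme's cut were left unstated in what was used here, as was whether starts count from 0 or 1, so positions may be off by 1 bp. Depth is unknown, and no interval based on reads is given. Intervals repeated in a list (31.0% to 38.9% of its distinct intervals) were counted once. The table of 21896 RefSeq genes (GRCm38.p6) gives gene ends without strand or exons, and a centre inside several genes went to the shortest.

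Peaks per gene, scaled to the mean list length, were put on the log2(number + 0.5) scale and compared in 1 limma fit (version 3.58.1, R 4.3.3) of all 9 libraries and the 14504 genes that averaged 1 peak or more; adjusted p-values are by the Benjamini-Hochberg method over all genes, with a threshold of 0.05. This scale understates changes of genes with few peaks. Overlapping peaks (1 bp or more) were joined as regions, and log2 covered bases were tested likewise at the 41144 regions open in every library. Each library's values were centred on its median over these same regions. Alternatives were unscaled numbers, uncentred widths, covered bases, equal numbers of widest peaks, deposited rows, a window of 10 kb, other pseudocounts and filters, a replicate block and left-out libraries. Unscaled covered bases, with their left-out libraries, and region classes with each library left out were added after seeing the data. Whether equal replicate numbers mark paired libraries is unknown, and the main fits did not pair them. The scripts were tested on simulated data. The members, gene lists and tests were chosen with earlier results of these data known. Named were all members, pathway genes that passed the test in any contrast, and the 3 nearest profiles of each member, of which 1 is not reported here; single regions and the cell type markers shown were chosen after their values were seen. Promoters not in the RefSeq table are not shown.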

Additional observations from a re-analysis of the deposited data

How the results depend on the processing

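Of the counts of genes called, that of young adult against infant was 5138 and moved to 2685 with unscaled numbers, 1401 with equal numbers of widest peaks and 2257 with deposited rows. That of mature adult against infant was 6429 and moved to 2292 with widest peaks, and that of mature against young adult was 135 and moved to 73 with deposited rows, 424 without young adult replicate 3 and 544 without it and mature adult replicate 1 together. Scaling set the direction: 3784 genes were higher and 1354 lower in young adult against infant when scaled, against 160 and 2525 unscaled, and 4413 and 2016 in mature adult against infant, against 207 and 4251. With 1 library left out the 3 counts ranged from 4521 to 5435, from 5440 to 6897 and from 108 to 424. Counts of shared regions with a called width were 2137, 8553 and 52 for the same comparisons. They moved to 1051, 2003 and 0 when peaks had to cover 50% of the region, the third to 0 with only the groups compared and to 275 without both libraries that stood apart, and ranged from 848 to 2440, from 2411 to 10567 and from 7 to 270 with 1 library left out.

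Among the genes, the mature adult minus infant difference in peak number turned to -0.17 at Tek and -0.054 at Ptprb unscaled, and in covered bases as measured to -0.27 at Tek, -0.32 at Angpt2 and -0.052 at Ptprb. Uncentred widths turned the region at 94745782 of Tek to -0.066 and that at 116300761 of Ptprb to -0.071. With widest peaks the Tek and Ptprb calls in peak number for mature adult against infant were lost (limma adjusted p = 0.148 and 0.0564), and the Ptprb call for young adult against infant held (adjusted p = 0.0378). With deposited rows Angpt1 was called in mature adult against infant, at 1.22 (limma adjusted p = 0.00609). The Angpt1 region open in adults alone fell outside the window at 10 kb. Other causes were not tested. Deviations from the group means correlated over genes from -0.17 to 0.17 between same-numbered libraries of different ages. Between libraries with other numbers the range was -0.23 to 0.29. With 3 libraries per group these values cannot show whether equal numbers mark paired libraries. With a replicate block the counts of genes were 4944, 6163 and 63 and those of regions 1281, 5183 and 6, and Tek in young adult against infant passed (limma adjusted p = 0.0386). Unknown depth limits every absence of a peak.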

Other observations

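Beyond the 100 kb window around Angpt1, a region given to no gene (chr15:42914195-42914421), 106480 bp from the nearest gene end, that of Rspo2, had 156, 0 and 201 bp in infant, 0, 0 and 222 bp in young adult and 150, 0 and 151 bp in mature adult libraries. Farther out, a region assigned to Rspo2, which encodes an enhancer of Wnt signalling, had 577, 505 and 669 bp in infant libraries and no peak in any adult library (chr15:42961605-42962300), the reverse of the pattern at chr15:42719360-42720288. Of all merged regions, 9.7% were open in every infant and no adult library, and 0.686% in every adult and no infant library. The next region assigned to Rspo2 (chr15:42962763-42963162) had a peak in all 9 libraries.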
